A study of Mus musculus with 2 samples.

Results

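The cells described here are immature neutrophils of the newborn mouse knee, recognised by transcripts of secondary (specific) granule proteins. A cell was included when Camp, Ngp and Ltf together held at least 1% of its unique molecular identifiers (UMIs, counted transcripts), fewer than 3 of Elane, Mpo, Prtn3 and Ctsg had 2 UMIs or more, and C1qa was at 0. Cells entered with 500 genes or more, 1000 UMIs or more and mitochondrial UMIs at 10% or less. The rule found 1142 cells among 15174 kept cells, of 24203 barcodes in all. The cells were thus chosen by their measured values of Camp, Ngp, Ltf, the 4 primary granule genes and C1qa, and the values of these genes are given as a description only.

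The data came from single-cell RNA sequencing of hindlimb knee joints of wild-type mice and Col12a1 knockout mice, which lack the gene of collagen XII, at postnatal day 7. Mice were of both sexes, and cells were freed from the joints, without skin and paws, by collagenase II (4 mg/mL, 6 h). The labels describe 3 samples per genotype over 2 experiments, merged into 1 count matrix whose barcodes end in 1 or 2. No label used here ties an ending to a genotype, so the cells are a mixture of both genotypes, genotypes were not compared, and the endings are called barcode sets 1 and 2, with values side by side where they matter. The sources used here do not give the number of animals per sample, or the mouse strain.

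Neutrophils are made in bone marrow from granulocyte progenitors through the promyelocyte, myelocyte, metamyelocyte and band stages. Primary (azurophil) granule proteins such as myeloperoxidase and elastase are made first, secondary granule proteins such as lactoferrin and the cathelicidin peptide at the myelocyte and metamyelocyte stages, and gelatinase granule proteins later, and division stops before the band stage. The timed making of granule proteins is known as targeting by timing, and the transcription factor C/EBP epsilon is required for the secondary granule programme.

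Camp encodes the cathelicidin CRAMP, an antimicrobial peptide. Ngp encodes neutrophilic granule protein, a cystatin-like protein of the same granules, and Ltf encodes lactoferrin, which binds iron. All of them lie on chromosome 9 of mm10, within 1195 kb. Camp lies at chr9:109847379-109849617 on the minus strand, Ngp at chr9:110419747-110423012 and Ltf at chr9:111019271-111042767, both on the plus strand (GENCODE M21). Their upstream sequences are shown because these genes define the cells. They were taken from the 250 bases before each RefSeq start (GRCm38.p6) and end where the GENCODE gene begins, at chr9:109849618-109849706 for Camp (minus strand, 89 bases), chr9:110419558-110419746 for Ngp (189 bases) and chr9:111019042-111019270 for Ltf (229 bases). Capitals mark the letters TTNNGNAA on either strand, a pattern resembling that of C/EBP factors.
Camp: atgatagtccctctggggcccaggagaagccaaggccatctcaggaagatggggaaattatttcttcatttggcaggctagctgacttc
Ngp: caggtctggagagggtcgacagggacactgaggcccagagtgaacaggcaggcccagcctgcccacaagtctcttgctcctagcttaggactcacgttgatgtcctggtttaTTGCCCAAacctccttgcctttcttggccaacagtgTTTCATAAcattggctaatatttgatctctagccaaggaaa
Ltf: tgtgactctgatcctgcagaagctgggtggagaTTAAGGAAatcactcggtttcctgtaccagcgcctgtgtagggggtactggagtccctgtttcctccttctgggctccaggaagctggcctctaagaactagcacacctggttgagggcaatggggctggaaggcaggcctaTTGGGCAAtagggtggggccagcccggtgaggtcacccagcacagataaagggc
In the full windows of 250 bases the pattern was found 138, 102 and 11 bases before the Ngp start and 217 and 75 bases before the Ltf start, and it was not found in the Camp window. The match 11 bases before the Ngp start lies past the printed stretch. Of 27025 RefSeq promoters cut in the same way, 36.9% held the pattern. GAGGAA, a PU.1-like pattern, was found in 1 of the 3 windows, 157 bases before the Ltf start, against 23.1% of promoters. TGTGGT, a RUNX-like pattern, was found in none of the 3, against 14.2%.

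Barcode set 1 held 658 of the cells, 9.19% of its 7160 kept cells (95% exact interval 8.53 to 9.88), and set 2 held 484, 6.04% of 8014 (5.53 to 6.58). Intervals here and below cover counting error only. The median cell had 9816 UMIs (quartiles 5262 and 15461), 1962 genes and 0.610% mitochondrial UMIs, and all 1142 cells together had 14138809 UMIs. Cells of set 1 were deeper, with a median of 10904.5 UMIs against 8384. The sets shared 40 barcode sequences, and for 1 of them the cells of both sets were among the immature neutrophils.

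All 10 listed markers of these cells (Camp, Ngp, Ltf, Lcn2, Fcnb, Cebpe, S100a8, S100a9, Cd177, Ly6g) were found and held 274773 CPM (a gene's UMIs per 1000000 UMIs of the pooled cells). Most of this sum was S100a9 and S100a8, at 11.6% and 8.25% of UMIs. The same markers held 69492 CPM in the granulocyte progenitors and 107630 CPM in the later neutrophils, both defined below. T and NK cell markers had 1 UMI in all, with Cd3e, Trbc2 and Ncr1 at 0. Markers of monocytes or dendritic cells were not absent: they held 360 CPM, with a UMI in 954 of the 1142 cells. The same list held 730 CPM in the progenitors and 229 CPM in the later neutrophils. The 7 granulocyte progenitor markers held 160 CPM. Camp, Ngp and Ltf of the first list and Elane, Mpo, Prtn3 and Ctsg of the last were used to choose the cells, so these sums were partly set by the choice. The rule also took in cells with transcripts of later stages, since 785 of the 1142 cells had 2 or more UMIs of Cxcr2 and Asprv1, markers of mature neutrophils. The term immature is therefore used for the range of cells set by the rule, not for a type with sharp bounds. At the lower bound, 19 cells had a Camp, Ngp and Ltf share of 1.0 to 1.1%, and 17 cells that met the rest of the rule had 0.9 to 1.0%. Of these 17 cells, 15 belonged to the later neutrophils defined below, and the median share of S100a8 and S100a9 was 17.9% just inside the bound and 17.0% just outside.

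Transcripts of other cells were present and unevenly spread. Globin and other erythroid markers held 21425 CPM in the pool, connective tissue markers 2471 CPM and chondrocyte markers 977 CPM. In the 3 groups of cells made below by their Camp, Ngp and Ltf share, connective tissue markers held 7664, 1261 and 166 CPM and erythroid markers 47976, 22341 and 2114 CPM from the lowest to the highest share. A total of 122 cells had 10 or more UMIs of a connective tissue, chondrocyte, endothelial, muscle, B lineage, T or NK, megakaryocyte or mast cell list, or globin at 5% of UMIs or more, and are called possible doublets. They numbered 63, 48 and 11 in the 3 groups. Without them connective tissue markers held 201 CPM, chondrocyte markers 36.4 CPM and erythroid markers 1680 CPM in the pool, so counts of genes called are also given without them. For some genes and lists whose ratios move strongly without them, those ratios are given as well.

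The 3 defining genes were abundant in nearly every cell. Camp took a median of 2.54% of a cell's UMIs (range 0.0638 to 10.8%) and Ngp 2.46% (0 to 7.05%, with 1 cell at 0). Ltf took 0.714% (0 to 2.35%, with 7 cells at 0). Together they took 6.25% (quartiles 3.39 and 8.67, highest 15.9%), with medians of 6.06% in set 1 and 6.53% in set 2. Across the 1142 cells, Camp and Ngp shares moved together more closely (Spearman 0.73; 0.73 in set 1 and 0.72 in set 2) than Camp and Ltf (0.21; 0.19 and 0.22). Ngp and Ltf lay between (0.55; 0.55 and 0.54). These correlations describe cells that share a library, and the shares are parts of 1 total, so no test is given.

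S100a8 and S100a9, which form the calcium-binding protein calprotectin, were the most abundant single transcripts. S100a9 took 11.6% of all UMIs and S100a8 8.25%. Genes of the stefin A family, inhibitors of cysteine proteases, were also abundant: 12 genes annotated as stefins or their close relatives together held 109880 CPM, led by Cstdc5 at 3.35%, Cstdc4 at 2.00% and Stfa1 at 1.92%. These are near-identical copies in 1 cluster, and Stfa1 lies at chr16:36276951-36285373, so how reads were split among them is uncertain and the sum is the safer value. Lcn2, the iron siderophore-binding lipocalin of secondary granules, took a median of 0.864% of a cell's UMIs, and Lyz2, lysozyme, took 0.717%. Lcn2 was at 0 in 2 cells. The stefin genes held 23796 CPM in the progenitors and 70252 CPM in the later neutrophils defined next. The plot of single cells shows how S100 and granule transcripts were spread.

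**Figure D1:**
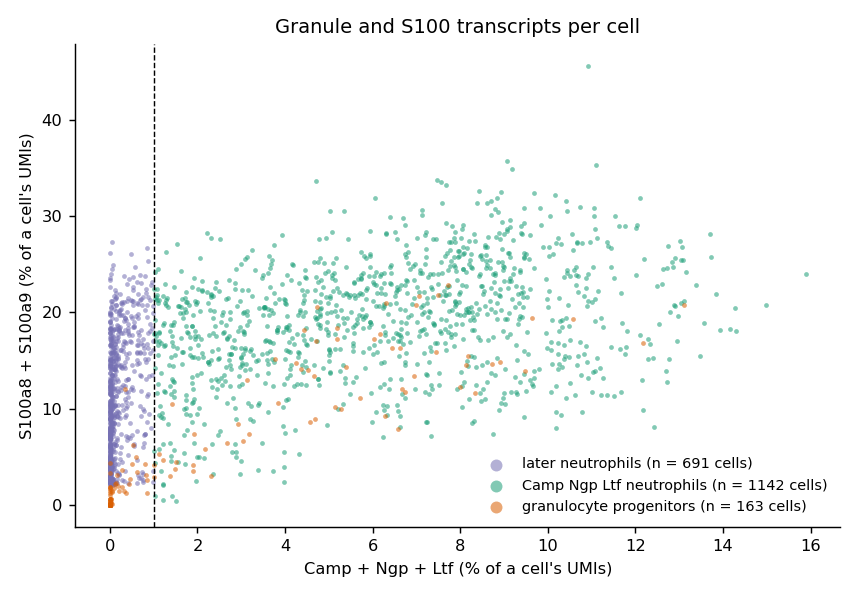
Share of Camp, Ngp and Ltf (x axis, % of a cell's UMIs) against the share of S100a8 and S100a9 (y axis, %), each point 1 cell, with the bound of 1% as a dashed line. The 1142 immature neutrophils (green) lie right of the line, 691 later neutrophils (purple) left of it, and 163 granulocyte progenitors (orange) on both sides.

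To place these cells in the sequence of maturation, they were set beside the stages before and after. Granulocyte progenitors were the 163 kept cells with C1qa at 0 and 3 or 4 of Elane, Mpo, Prtn3 and Ctsg at 2 UMIs or more (84 in set 1, 79 in set 2, median 24113 UMIs). Later neutrophils were the 691 kept cells with C1qa at 0, S100a8 and S100a9 at 2% of UMIs or more, Camp, Ngp and Ltf under 1% and fewer than 3 of the 4 primary granule genes (394 and 297, median 4805 UMIs). Of the later neutrophils, 620 had 2 or more UMIs of Cxcr2 and Asprv1. A call asked for 100 UMIs over both classes, a CPM ratio of 2 or more (higher) or 0.5 or less (lower), a 95% exact interval that left out 1, and agreement of direction between the sets. The matrix is 1 sample, so there is no replicate check and no p-value.

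The defining genes had these levels along the stages. Camp had 15225 CPM in progenitors (19152 in set 1, 10576 in set 2), 32897 in the immature neutrophils (32337 and 33805) and 1048 in later neutrophils. Ngp had 2649, 26429 and 1002 CPM, and Ltf had 127, 6848 and 378 CPM in the same order. The ratio of immature neutrophils to progenitors was 2.16 for Camp, 9.98 for Ngp and 54.1 for Ltf. These ratios differed between the sets, at 1.69 and 3.20 for Camp and 33.7 and 181 for Ltf. The median Camp, Ngp and Ltf share of a progenitor was 0.712% in set 1 and 0.00700% in set 2, and 60 of the 163 progenitors had 1% or more. The median progenitor had 0.0849% of its UMIs in Camp, and 47 of the 163 had none. The primary granule genes of the rule were low by choice: Prtn3 had 42.7 CPM against 4823 in progenitors and Elane 9.83 against 3195. Mpo and Ctsg had 0.707 and 0.424 CPM.

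Against progenitors, the immature neutrophils had more transcripts of secondary and gelatinase granules, and fewer of ribosomal proteins and S phase genes. Of 12 listed receptors 6 were higher and 3 lower. Over all 8906 genes tested, 13.5% were called higher (1199 genes) and 33.9% lower (3022 genes), and without possible doublets 16.7% and 32.7% of 7600. The split depends on the total that levels are scaled to: with the 20 most abundant genes left out of it, 2380 were called higher and 1543 lower, and the median log2 ratio of all genes moved from -0.50 to 0.17. A list's count is therefore read against both.

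Of 12 secondary granule genes outside the rule, 8 were higher and none lower (median log2 ratio 2.53). Lcn2 had 9051 CPM (8912 in set 1, 9277 in set 2) against 561 in progenitors (749 and 337), a ratio of 16.1. Cd177, a surface protein stored in granules, had 505 CPM (504 and 507) against 20.1, a ratio of 25.1. Chil3, a chitinase-like lectin, had 3055 CPM (3174 and 2861) against 446 (614 and 247). In each of these genes both sets lay far above both sets of the progenitors. Fcnb, the granule lectin ficolin B, was one of 4 that passed no call, at 460 CPM (444 and 486) against 743 (904 and 553). The others were Cyba, Hp and Slpi. Fcnb was thus at a higher level in progenitors than in the immature neutrophils in both sets, short of the ratio used for a call.

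All 9 gelatinase granule and late genes tested were higher (median log2 ratio 6.55), and Arg1 had too few UMIs to test. Retnlg, which encodes a resistin-like protein of late neutrophils, had 6173 CPM (6765 and 5212) against 6.77, a ratio of 912 (649 to 1324). Mmp8 and Mmp9, neutrophil collagenase and gelatinase B, had 667 and 496 CPM against 4.10 and 1.23, ratios of 162 (105 to 266) and 403 (185 to 1099). Of the UMIs of Mmp8 and Mmp9 in progenitors, 1 cell held 85% and 67%, and without possible doublets the ratio of Mmp9 was 1805. Ly6g, the surface antigen used to sort mouse neutrophils, had 134 CPM against 1.44. These genes were near 0 in progenitors, so the sizes of the ratios rest on few UMIs there.

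The remaining genes of the primary granule list, not all of which encode granule contents, did not all follow the 4 of the rule. Ms4a3, a marker of granulocyte and monocyte progenitors, was 8.64-fold lower at 90.4 CPM (94.8 and 83.3) against 781, Nkg7 was 58.0-fold lower at 4.74 CPM, and Ctsc was also lower. Serpinb1a, an inhibitor of the neutrophil serine proteases, had 432 CPM against 505 and Srgn, the granule proteoglycan serglycin, 1487 against 1812, and neither was called. In total 3 of 5 were lower and none higher.

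Among 12 regulators, 1 was higher and 4 were lower (3 without possible doublets), a share near that of all genes called lower. Cebpe had 313 CPM (327 and 290) against 263 (312 and 207), a ratio of 1.19, and Spi1, which encodes PU.1, had 368 against 247, a ratio of 1.49, so neither was called. Cebpb had a ratio of 0.980. Irf8, which favours the monocyte fate, was 43.9-fold lower, Myc 20.5-fold lower, and Gfi1 and Cebpa were lower as well, at 8.77 against 37.1 CPM and 2.33 against 25.4 CPM. Cebpa was not called without possible doublets. Klf2 was 3.42-fold higher. Of 12 receptors, 6 were higher (Csf3r, Fcgr3, Il6ra, Itgb2, Tlr2 and Tlr4) and 3 lower (Cd34, Itga4 and Kit). Csf3r, the receptor of the growth factor G-CSF, had 110 CPM against 35.5, and Itgb2, the beta chain of the leukocyte integrins, 192 against 33.2. Kit, the stem cell factor receptor, was 6.51-fold lower.

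Among genes of the NADPH oxidase, the enzyme of the respiratory burst, Cybb, the catalytic subunit, had 1207 CPM (1257 and 1126) against 234 (322 and 129), a ratio of 5.17. Ncf1, a cytosolic subunit, was also higher, at 508 against 167 CPM.

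Of 22 mature neutrophil genes 10 were higher and 4 lower (8 and 4 without possible doublets). The lower ones were Ccl3, Ccl4, Ifitm1 and Il1b, and Il1b had 69.7 CPM against 378. Of these, 1 progenitor cell held 57.5% of the Il1b UMIs in its class. Of 9 S100 and annexin genes 5 were higher, S100a8 (3.82-fold), S100a9 (4.08-fold), S100a6 (8.64-fold), S100a11 and Anxa1 (4.61-fold), and 2 were lower, S100a10 and S100a4. S100a8 and S100a9 were in no rule for these 2 classes. Of 6 interferon-response genes 4 were higher (2 of 5 without possible doublets).

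Ribosomal protein genes were lower throughout: all 76 were called lower (median log2 ratio -2.57), and 74 of 76 with the 20 most abundant genes left out. They held 45710 CPM in the immature neutrophils (45705 and 45718), 264383 CPM in progenitors and 37741 CPM in later neutrophils. Rps2 was 11.1-fold and Rpl12 9.91-fold lower than in progenitors.

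Outside the fixed lists, the genes with the highest called ratios included Plbd1, a phospholipase B-like enzyme, at 353 CPM against 2.26, and Stfa2 at 10035 against 136 CPM. Ceacam10, of the carcinoembryonic antigen family, had 1164 UMIs in the immature neutrophils and 0 in progenitors, at least 134-fold higher when 3 UMIs are set for the progenitors as a group. Arhgap40 also passed, but 1 cell held nearly all of its UMIs there, and its direction reversed in other settings. The genes with the lowest ratios included Cst7, cystatin F, which was 214-fold lower, and Ms4a6c, 107-fold lower. Serpina3g had 303 UMIs in progenitors and 0 in the immature neutrophils, at least 293-fold lower on the same footing. Prg2 and Mcpt8, which belong to eosinophils and basophils, were called lower with all progenitors and were not called without possible doublets.

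Against later neutrophils, the immature neutrophils had more transcripts of secondary granule genes and of the cell cycle, and fewer of the listed mature neutrophil and interferon-response genes. Of 8368 genes tested, 12.7% were called higher (1060 genes) and 19.3% lower (1619 genes, or 1038 without set 1). Without possible doublets these were 26.8% and 15% of 6884. With the 20 most abundant genes left out of the total, 1769 were called higher and 1082 lower, and the median log2 ratio of all genes moved from -0.10 to 0.28.

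Of 12 secondary granule genes, 7 were higher and 1, Slpi, was lower (median log2 ratio 1.48). Chil3 had 9.57 CPM in later neutrophils (7.03 in set 1 and 13.9 in set 2), a ratio of 319 (235 to 445). Fcnb had 7 UMIs or 1.63 CPM there (0 and 4.43), a ratio of 281 (137 to 700). Both genes were scarce in later neutrophils in both sets. Without possible doublets the Fcnb ratio was 1421. Lcn2 was 5.10-fold higher, Cybb 5.27-fold and Lyz2 had 7443 against 2112 CPM. Slpi, an inhibitor of leukocyte proteases, was 2.97-fold lower. Olfm4, a granule protein made by a share of neutrophils in mouse and human, was not called, at 1385 CPM (1457 and 1268) against 1098 (1075 and 1136).

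The gelatinase and late genes had 1 member higher and 2 lower of 9 (median log2 ratio -0.09, against -0.10 over all genes). Mmp8 had 667 CPM (616 and 749) against 669 (568 and 841), a ratio of 0.997 (0.956 to 1.04). Mmp9 had 496 CPM against 636, and Mmp25 had 74.3 against 78.9. Ly6g was 2.75-fold higher. Retnlg was 2.07-fold lower at 6173 against 12766 CPM and Adam8 2.57-fold lower, but neither was called with the 20 most abundant genes left out of the total.

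Mature neutrophil genes were lower, 20 of 23, with none higher (median log2 ratio -2.07). Il1b, the inflammatory cytokine, had 69.7 CPM (75.8 and 59.9) against 2023 (2309 and 1533) and was 29.0-fold lower. The chemokine gene Ccl4 was 22.9-fold lower. Cxcr2, the chemokine receptor that draws neutrophils out of marrow, had 199 CPM against 589 and was 2.96-fold lower. Among the genes of lowest ratio outside the lists were Cxcl3, 70.8-fold lower, and Il1a, 56.1-fold lower. Tnf passed no call. Adgre1, which encodes F4/80 and is known from macrophages, was 36.9-fold lower, at 11.1 against 410 CPM. The 5 listed macrophage markers, Adgre1 among them, held 13.2 CPM in the immature and 412 CPM in the later neutrophils. Adgre1 thus made up most of both sums, and C1qa was at 0 by the rule. The part of macrophage transcripts in the other differences was not tested.

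Among regulators, Cebpe was 9.38-fold higher (7.94 to 11.2; 10.3 in set 1, 8.04 in set 2) than in later neutrophils. Gfi1, a repressor needed for granulocyte formation, had 124 UMIs against 0, at least 12.5-fold higher with 3 UMIs set for the later class, and had too few UMIs for a call without possible doublets. Cebpb and Junb were 4.66-fold and 5.10-fold lower, and Spi1 had a ratio of 1.02. Of 12 receptors, 6 were lower and none higher (4 lower with the 20 most abundant genes left out of the total). Csf3r was 5.00-fold lower, at 110 against 551 CPM, and Tlr4, the receptor of bacterial lipopolysaccharide, had 79.9 against 311 CPM. Of 7 interferon-response genes, 5 were lower (median log2 ratio -1.66), among them Isg15, 5.60-fold, and Oasl1, 5.53-fold. Of 12 immediate early and stress genes, 8 were lower, led by Atf3, 7.14-fold, and 5 were lower with the 20 most abundant genes left out of the total. Anxa1, annexin A1, which limits neutrophil recruitment, was 5.99-fold higher and S100a6 3.34-fold lower.

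Ribosomal protein genes passed no call in either direction with all cells (median log2 ratio 0.28), whereas 66 of 76 were higher without possible doublets, with a median of 1.47. The plot of 12 genes along the stages sets the levels of both barcode sets side by side.

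**Figure D2:**
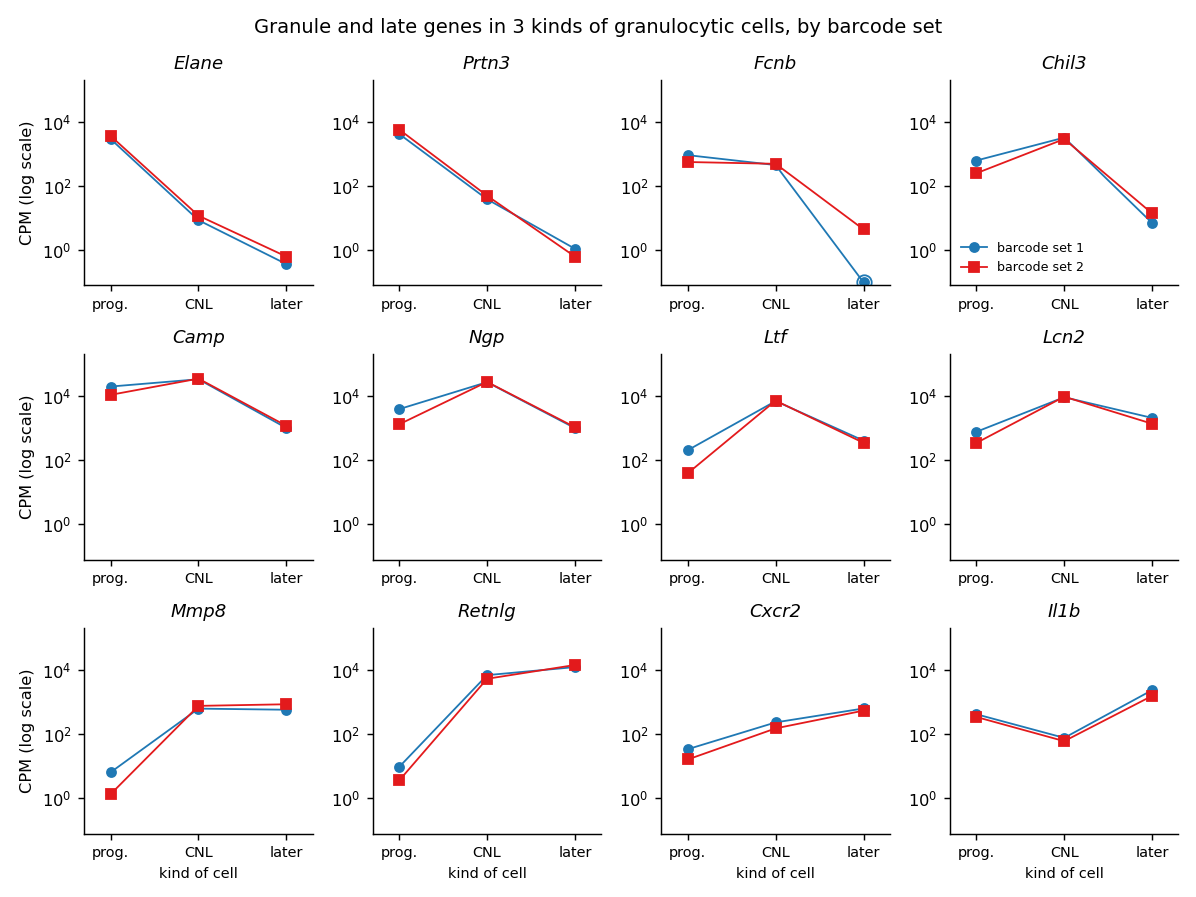
Level in CPM (log axis) of 12 genes in granulocyte progenitors (prog.), the immature neutrophils (CNL) and later neutrophils (later), in barcode set 1 (blue) and set 2 (red), with levels of 0 drawn as ringed points at the foot. Elane and Prtn3 are highest in the first class, Camp, Ngp, Ltf and Lcn2 highest in the second in both sets, and Il1b highest in the last, at 2023 CPM.

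Cell cycle transcripts were abundant in the immature neutrophils and scarce in the later class. The S phase and G2/M lists together held 4465 CPM in the immature neutrophils (4642 in set 1, 4179 in set 2), 4885 CPM in progenitors and 802 CPM in later neutrophils. Pooled sums weigh deep cells more. The median share per cell was 0.156% in the immature neutrophils, 0.471% in progenitors and 0.0393% in later neutrophils. Against later neutrophils, 13 of 14 S phase genes and 18 of 18 G2/M genes were higher (median log2 ratios 2.85 and 3.41). Without possible doublets the counts were the same and the medians were 3.37 and 4.72. Top2a, the DNA topoisomerase of dividing cells, had 239 CPM (264 and 200) against 14.9, a ratio of 16.0. In later neutrophils 1 cell held 67% of the Top2a UMIs, and without possible doublets the ratio was 53.8. Tyms, thymidylate synthase, had 58.5 CPM against 3 UMIs in the later class, a ratio of 83.5 (28.5 to 406).

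The 2 phases did not stand in the same relation to progenitors. S phase genes held 583 CPM in the immature neutrophils and 1457 CPM in progenitors, and 12 of 15 were called lower (8 with the 20 most abundant genes left out of the total). Mcm6, a subunit of the replicative helicase, was 5.60-fold lower and Gins2 4.75-fold lower. G2/M genes held 3883 CPM against 3428, and 0 of 18 were called in either direction (3 called higher with the 20 genes left out). Mki67 had 226 CPM (261 and 169) against 149 (182 and 109). Hmgb2, a chromatin protein, made up most of the G2/M sum with 2449 CPM against 1855. The G2/M sums thus differed by less than Hmgb2 did. The median log2 ratio of the 18 genes was -0.20, against -0.50 over all genes. Hmgb2 also made up most of the summed level of both lists in the immature neutrophils.

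Counted per cell, 250 of 1142 cells (21.9%; 19.5 to 24.4) had 0.5% or more of their UMIs in these lists and are called cycling here. The share was 23.9% in set 1 and 19.2% in set 2. It was 46.0% in progenitors (38.2 to 54.0), 0.724% in later neutrophils and 13.6% over all kept cells. Thinned to 1000 UMIs per cell, the shares were 23.8% in the immature neutrophils, 47.9% in progenitors, 1.45% in later neutrophils and 1.69% in collagen-rich cells, the 5216 kept cells with a strong collagen signal. No cell was too shallow for this depth. Cycling cells are a range of a score: 22 cells lay at 0.4 to 0.5% and 11 at 0.5 to 0.6%.

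**Figure D3:**
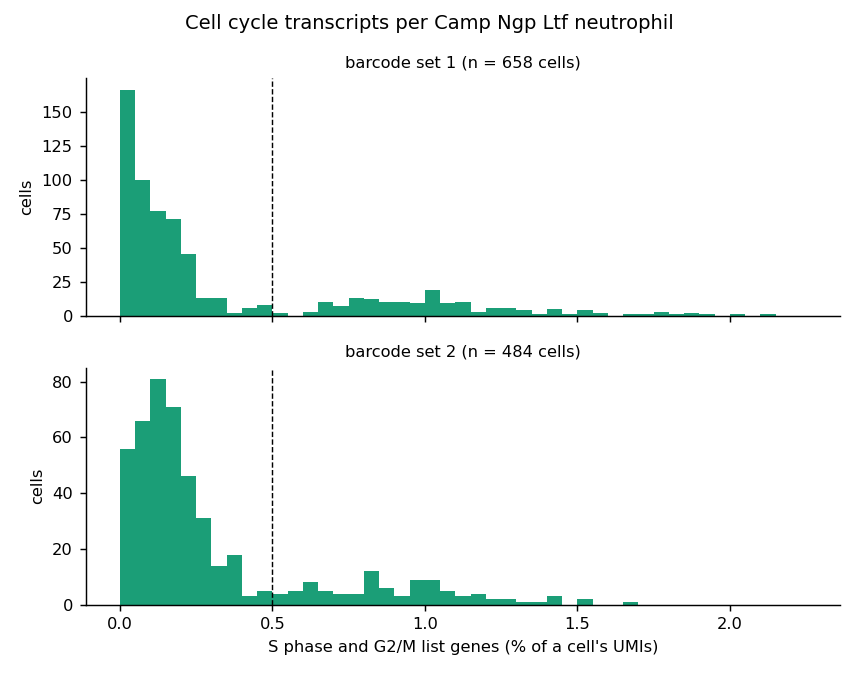
Number of immature neutrophils (y axis) by the share of their UMIs in S phase and G2/M list genes (x axis, %), for barcode set 1 (658 cells) and set 2 (484 cells), with the bound of 0.5% as a dashed line. Most cells lie below 0.4%, and the 250 cells above the line spread over a wide range in both sets, with 11 cells between 0.5 and 0.6%.

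Variation among the immature neutrophils was described by splitting them into 3 tiers of equal size by their Camp, Ngp and Ltf share within each set (382, 380 and 380 cells, median shares 2.47, 6.25 and 9.45%). A low share also went with more transcripts of other cells, as given above, so the tiers are not a measure of maturation alone. Levels across tiers are CPM of totals without these 3 genes. Camp and Ngp followed the split by construction, with 10238, 32418 and 56934 CPM for Camp from the lowest to the highest tier, and Ltf less so, with 5075, 7771 and 8535 CPM. The highest tier had more transcripts of the cell cycle and, with all cells, of secondary granule genes, and the lowest tier more of late and mature genes. Of 6072 genes tested, 15.5% were higher (943 genes) and 15.3% lower (930 genes) in the highest than in the lowest tier. Without set 1 these were 301 and 563 genes. Without possible doublets these were 25.3% and 15.9% of 5066. With the 20 most abundant genes left out of the total, 1195 were called higher and 770 lower, and the median log2 ratio of all genes moved from 0.03 to 0.20.

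Fcnb had 23.1 CPM in the lowest tier (4.98 in set 1, 48.3 in set 2), 502 in the middle (495 and 514) and 832 in the highest (772 and 938), a ratio of 36.0 (28.8 to 45.4). Chil3 had 491, 3193 and 5428 CPM, a ratio of 10.5 to 11.6 by its 95% exact interval. Ms4a3 had 4.05 CPM (0 and 9.66), 101 (107 and 91.8) and 161 (164 and 156), a ratio of 39.8. The order from lowest to highest tier was the same in both sets for each of these genes. The ratio of Fcnb was 155 in set 1 and 19.4 in set 2, and 74.0 without possible doublets. The ratio of Ms4a3 was 128 without them. Cebpe had 132, 284 and 544 CPM, a ratio of 4.11, and Serpinb1a 158, 445 and 709 CPM, a ratio of 4.49. Lcn2 had 5612, 9190 and 13284 CPM and Cybb 685, 1406 and 1620 CPM, ratios of 2.37 and 2.36. In all, 6 of 12 secondary granule genes were higher and Slpi was lower. Without possible doublets 4 of 12 were higher and 2 lower, shares near the 25.3% and 15.9% of all genes. The median log2 ratio was then 0.64, against 0.11 over all genes. Cd177 had 400, 564 and 620 CPM and was not called.

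Late genes ran the other way. Retnlg had 16236 CPM in the lowest tier (19226 and 12095), 5030 in the middle (5303 and 4572) and 1176 in the highest (1215 and 1107), and was 13.8-fold lower in the highest than in the lowest. Mmp8 had 1295, 750 and 241 CPM and was 5.36-fold lower. Of 9 gelatinase and late genes 5 were lower and none higher (median log2 ratio -1.96, against 0.03 over all genes). Ly6g, with 117, 163 and 142 CPM, was not called. Of 22 mature neutrophil genes 16 were lower, with Clec4d, a C-type lectin, 23.1-fold and Ccl6 24.0-fold lower, and 1, Tnf, was higher with all cells but not without possible doublets. Csf3r had 223, 94.6 and 65.5 CPM, Il1b 201, 43.7 and 14.4 CPM, and Cxcr2 418, 182 and 95.2 CPM. S100a6 was 11.4-fold and Srgn 4.53-fold lower in the highest tier. All 5 interferon-response genes tested were lower, with Rsad2 at 112, 16.3 and 7.97 CPM and 14.1-fold lower.

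Both cell cycle lists were higher in the highest tier, 14 of 14 S phase genes and 18 of 18 G2/M genes (median log2 ratios 3.13 and 3.32), and 2.36, 21.1 and 42.4% of the cells of the tiers were cycling. Top2a had 39.3, 300 and 370 CPM and Pcna, the sliding clamp of DNA replication, 26.6, 98.6 and 106 CPM. Ribosomal protein genes passed no call between these tiers with all cells (median log2 ratio 0.32). Without possible doublets 72 of 76 were higher in the highest tier (median 1.80, against 0.11 over all genes). Outside the lists, replication histone genes led, with Hist1h3c 39.5-fold higher at 171 against 4.34 CPM. Histone transcripts mostly lack poly(A) tails, and these genes are near-identical copies, so their levels are uncertain. The genes with the lowest ratios outside the lists included the cartilage and connective tissue genes Ccn2, Ucma, Col9a2, Col9a1 and Prg4. None of these 5 was called without possible doublets. Those were chosen in part by connective tissue and chondrocyte markers, Col9a1 among them, so this outcome was partly set by the choice. The levels of connective tissue markers by tier are given above, and their part in other low genes was not tested.

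**Figure D4:**
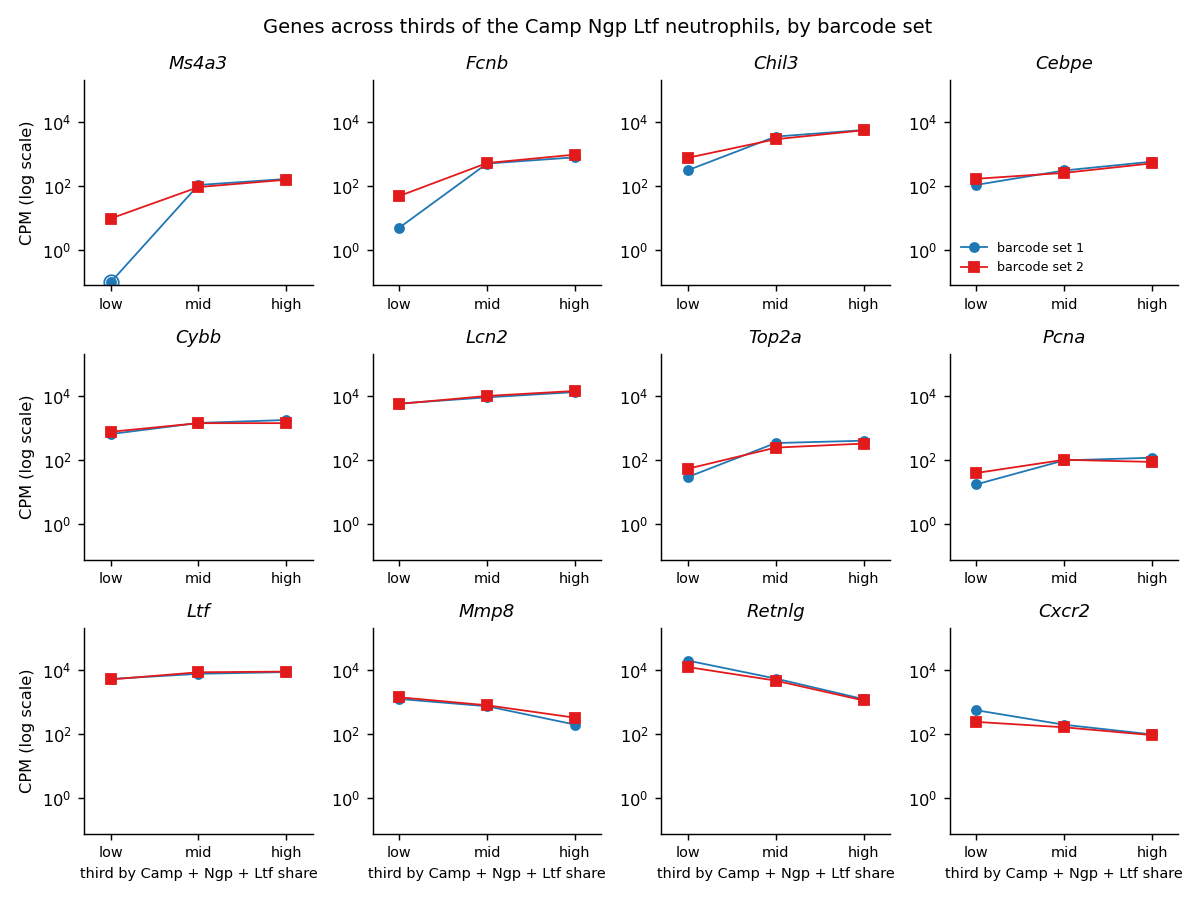
Level in CPM (log axis, totals without Camp, Ngp and Ltf) of 12 genes in the lowest (low), middle (mid) and highest (high) tier of immature neutrophils by Camp, Ngp and Ltf share, in barcode set 1 (blue) and set 2 (red). A level of 0 (Ms4a3, lowest tier of set 1) is drawn as a ringed point at the foot. Fcnb, Chil3, Ms4a3, Cebpe and Top2a go up from low to high in both sets, and Retnlg, Mmp8 and Cxcr2 go down.

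Shares of cells with a transcript gave the same order at equal depth. After thinning to 1000 UMIs, Fcnb was seen in 0.524, 16.8 and 37.4% of the cells of the lowest, middle and highest tier. Mmp8 was seen in 72.3, 49.7 and 21.6%, and Retnlg in 91.4, 52.9 and 26.3%. Over all 1142 cells the shares were 18.2% for Fcnb, 47.9% for Mmp8 and 56.9% for Retnlg, at a median of 9816 UMIs before thinning, where 42.2% of cells had Fcnb and 69.4% Mmp8. The background in collagen-rich cells, which should lack these genes, was 0.0192% for Fcnb, 0.0575% for Mmp8 and 0.767% for Retnlg after thinning, and 0.326, 0.671 and 9.61% before, at a median of 14509 UMIs.

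Olfm4 behaved differently from these stage genes. It was seen in 45.0, 38.4 and 38.9% of cells of the tiers at equal depth, in 37.0% of later neutrophils and in 3.68% of progenitors, against 0.0767% of collagen-rich cells. Before thinning it was seen in 46.0% of the immature neutrophils, close to the 40.8% at 1000 UMIs, although its pooled level was 1385 CPM. Cd177, at a lower pooled level of 505 CPM, went from 39.0% at 1000 UMIs to 90.9% before thinning. For Olfm4, greater depth thus added few cells with a transcript.

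The cycling cells and the other immature neutrophils were compared as well, a comparison added after the share of cycling cells had been seen. Outside the cell cycle lists, which chose the cells, 17.6% of 7392 genes were higher in cycling cells and 13.1% lower (23.4% and 12.7% of 6337 without possible doublets). Cycling cells were deeper (median 19017.5 against 8266 UMIs). They had high Camp, 48282 against 23798 CPM, and Ngp, 30422 against 24067 CPM, but not high Ltf, 5600 against 7586 CPM. Lcn2 did not differ, at 9022 against 9068 CPM, a ratio of 0.995 (0.984 to 1.01).

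Of 12 secondary granule genes, 2 were higher in cycling cells and 3 lower (Cfp, Olfm4 and Slpi, median log2 ratio -0.13). The 2 of 12 lay near the 17.6% of all genes called higher. Of 4 genes of the primary granule list 1 was higher and 1 lower. The higher genes of these 2 lists were Ms4a3, 7.58-fold at 199 against 26.2 CPM, Fcnb, 4.94-fold at 922 against 187 CPM, and Chil3, 3.39-fold at 5483 against 1619 CPM. Cebpe, at 426 against 246 CPM, was not called. Of 9 late genes 8 were lower and none higher (median log2 ratio -2.80). Retnlg had 142 against 9740 CPM and was 68.7-fold lower (68.2 in set 1, 74.8 in set 2), and 1 cell held 25.2% of its UMIs in cycling cells. Mmp8 had 61.3 against 1025 CPM and was 16.7-fold lower. At equal depth Fcnb was seen in 50.8% of cycling and 9.08% of other cells, Chil3 in 94.8 and 50.9%, and Mmp8 in 5.60 and 59.8%. Olfm4 was lower, at 761 against 1754 CPM, and was seen in 33.2 and 42.9% of cells. Cybb was not called, at 1166 against 1231 CPM. All 6 interferon-response genes tested were lower, and 17 of 22 mature neutrophil genes were lower with none higher. Of 76 ribosomal protein genes 2 were higher with all cells and 48 without possible doublets, with none lower (median log2 ratios 0.58 and 1.09).

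**Figure D5:**
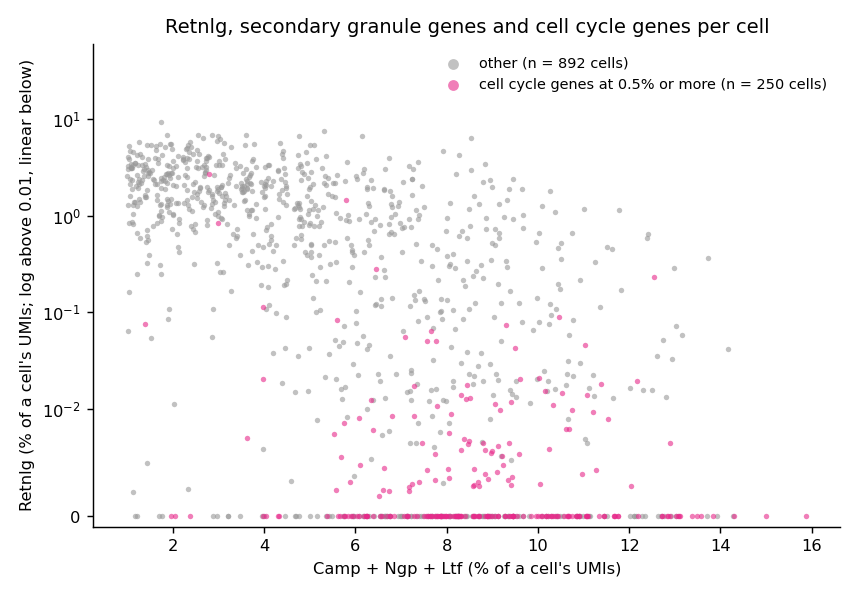
Retnlg share of a cell's UMIs (y axis, %, logarithmic above 0.01 and linear below) against the share of Camp, Ngp and Ltf (x axis, %), each point 1 immature neutrophil. Cycling cells (pink, 250) lie mostly at or near 0 for Retnlg and at high Camp, Ngp and Ltf shares, and the other cells (grey, 892) spread from high Retnlg at a low share to low Retnlg at a high share.

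Col12a1, the gene deleted in the knockout mice, had 16.0 CPM in the immature neutrophils (10.6 in set 1, 24.7 in set 2). Its level was 36.7, 13.3 and 6.68 CPM from the lowest to the highest tier, beside connective tissue markers at 7664, 1261 and 166 CPM. The part of connective tissue transcripts in this level was not tested.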

How the data were processed

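Per the labels' protocols, 10x Genomics 3′ v3 libraries were aligned, counted and merged by the authors with Cell Ranger 7.0.0; the build, mm10, comes from the submitters' processing notes. The authors' deposited file holds raw UMI counts, 257619292 in all, for 32285 genes and 24203 barcodes. The use of intronic reads is not stated in these sources. The labels name no separate animals per barcode set, so the matrix was treated as 1 sample.

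Counts were summed over cells and divided by the UMIs of those cells (CPM), with exact Poisson intervals, exact conditional binomial intervals for ratios and exact Clopper-Pearson intervals for shares, at 95% and for counting error only. For the 3 tiers, the UMIs of Camp, Ngp and Ltf were left out of the totals. For a bound on a ratio, 3 UMIs replaced a sum of 0. No doublet caller was run; possible doublets were counted from markers. To compare shares of cells, each cell was thinned to 1000 UMIs. The code was tested on simulated data. Python 3.11.15, numpy 2.4.6, scipy 1.17.1, pandas 2.3.3 and matplotlib 3.10.9 were used.

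The members and gene lists were chosen with earlier results of these data known. Genes named are those of the rule, the 3 most abundant of each list, the 2 highest and 2 lowest ratios of each list, and the 8 highest and 8 lowest called outside the lists in each comparison, without Xist, Y-linked, mitochondrial and unnamed genes; any other gene named with values was picked after its values were seen. Alternatives were filters, the shares and counts in the rule, thresholds, the scaling total, each barcode set alone and, chosen after seeing the data, leaving out possible doublets or cycling cells, and narrower classes of progenitors and later neutrophils. Results for 1 gene of the lists, and the counts of its list, are not reported here.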

Additional observations from a re-analysis of the deposited data

How the results depend on the processing

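The immature neutrophils were 7.53% of kept cells. A floor of 200 genes and 500 UMIs gave 6.64%, one of 1000 genes and 2000 UMIs 8.12% and a ceiling of 5% mitochondrial UMIs 8.02%. It was 8.28% with a Camp, Ngp and Ltf bound of 0.5% and 6.59% with one of 2%. It was 6.06% without cells holding 10 UMIs of another lineage, 6.72% without possible doublets, 6.04% without set 1 and 9.19% without set 2. Other lineages here included macrophages, monocytes or dendritic cells and eosinophils, but not erythroid cells. Of the 222 immature neutrophils so left out, 156 held 10 or more UMIs of the monocyte or dendritic list, which most of the cells expressed. Deeper cells meet a fixed cut in UMIs more readily, and cycling cells were deeper. The cycling share of 21.9% was 24.8% with the bound of 2%, 18.2% without cells holding 10 UMIs of another lineage, 19.2% without set 1, and 31.8% and 9.98% with cycling set at 0.25% and 1%. The cell cycle level of 4465 CPM was 4513 with at least 1000 genes and 2000 UMIs, 4224 and 4803 with bounds of 0.5% and 2%, 4338 with fewer than 2 primary granule genes, 3917 without cells holding 10 UMIs of another lineage, 4628 without possible doublets, 4179 without set 1 and 4642 without set 2.

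Counts of genes called against progenitors (1199 higher, 3022 lower) became 1812 higher at a ratio of 1.5, 643 and 1698 at a ratio of 3, 2380 and 1543 with the 20 most abundant genes out of the total, 1639 lower at 300 UMIs, and 1828 lower without cells holding 10 UMIs of another lineage. Against later neutrophils (1060 and 1619) they became 1802 and 2485 at 1.5, 539 and 872 at 3, 2596 lower at 30 UMIs, 585 and 940 at 300 UMIs, 1769 higher with the 20 genes out, 1844 and 1030 without possible doublets, 331 higher without cycling cells, 931 lower without cells holding 10 UMIs of another lineage and 1038 lower without set 1. For the highest against the lowest tier (943 and 930) they became 1612 and 1555 at 1.5, 445 and 538 at 3, 1580 and 1831 at 30 UMIs, 369 and 461 at 300 UMIs, and 301 and 563 without set 1. The cause was not tested, apart from settings that by construction test fewer genes or ask for a larger ratio.

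A change of direction was counted only for values called at the main settings. Of 3614 values of named genes under alternatives, 3300 kept their call or stayed uncalled, 250 were no longer called, 55 became called and 9 called values changed direction. The last are, as log2 ratios, Arhgap40 against progenitors (-10.71 with fewer than 2 primary granule genes, -3.87 without cells holding 10 UMIs of another lineage, -1.86 without set 1), Ccl5 (2.33) and F13a1 (2.40) against later neutrophils with the bound of 0.5%, Mok (-0.77) there without set 1, Mki67 (-0.55) there without cycling cells, and Cul9 (-0.91) and Ucma (1.09) between tiers without cells holding 10 UMIs of another lineage. No paired analysis was possible because the matrix is 1 sample whose barcode sets no label ties to a genotype. Few UMIs in progenitors and later neutrophils limit the ratios of genes near 0 there.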
